A study of Mus musculus with 9 samples.

Results

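The globin and erythroid genes described here are 6 genes whose products are made mainly by developing red blood cells, namely Hbb-bs, Hbb-bt, Hba-a1, Hba-a2, Alas2 and Slc4a1. They are 6 of the 53465 genes listed for mouse whole-brain RNA, and all 6 are among the 18501 genes kept by edgeR's filter on low counts. The genes were chosen by name with their levels in these 9 libraries already known, so their values are given as a description without a test. The libraries came from male C57BL/6 mice that were 7 weeks old at the start, with 3 mice in each of 3 groups. CON mice received saline vehicle. DNP mice, the model of diabetic neuropathic pain, spent 4 weeks on a high-fat diet (60% fat), were then injected with streptozotocin (50 mg/kg once daily for 7 days), which destroys the insulin-producing cells of the pancreas, and later had saline. BAC mice were diabetic mice made in the same way treated with 8 mg/kg of the GABA-B receptor agonist baclofen once daily for 7 days. The fatty diet, the streptozotocin and the diabetes are shared by DNP and BAC and cannot be told apart in a comparison with CON. The brains were dissected under deep anaesthesia and frozen, and neither the labels nor the methods mention perfusion to wash out blood. The amount of blood in each brain sample was not measured.

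Haemoglobin, the oxygen carrier of red blood cells, is built from alpha chains, beta chains and heme, an iron-containing ring. In C57BL/6 mice the adult alpha chains are encoded by Hba-a1 and Hba-a2, and the adult beta chains by Hbb-bs and Hbb-bt. Alas2 encodes the erythroid form of the first enzyme of heme synthesis, whose form in most other tissues is encoded by Alas1. Slc4a1 encodes band 3, the anion exchanger of the red cell membrane, which also anchors the membrane skeleton. Young red cells, the reticulocytes, lack a nucleus and still carry globin mRNA, and globin transcripts have also been described at low levels in neurons and glia. RNA of a whole tissue does not separate these sources, and in bulk samples more cells of a type and more RNA per cell cannot be told apart.

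The 4 globin genes together were at 202 ± 14.4 CPM in CON (SD, n = 3 mice), where CPM is the count scaled to the size of the library. They were at 576 ± 101 CPM in DNP and 552 ± 148 CPM in the BAC group (SD, n = 3 each). The summed level was 215, 187 and 206 CPM in CON replicates 1 to 3, 674, 472 and 583 in DNP, and 464, 469 and 723 in the BAC group. Each of the 6 diabetic libraries was thus above each CON library, and the DNP and BAC libraries overlapped. The log2 ratio of the summed level was 1.50 in DNP versus CON, a 2.82-fold difference, 1.42 in BAC versus CON, a 2.67-fold difference, and -0.08 in BAC versus DNP. The comparisons of DNP and of BAC with CON share the 3 CON libraries and are therefore not independent. Globin transcripts were 0.0189% to 0.0203% of all counts in CON and 0.046% to 0.0745% in the diabetic libraries.

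The libraries held 13107382 to 16008129 counts each. Between libraries of the same group the chi-square of the counts per degree of freedom was 15.1 to 116, so the libraries of a group differed by more than sampling noise. All libraries expressed markers of neurons, astrocytes and oligodendrocytes, as whole brain should. They differed in the brain regions they held. The summed level of 7 cerebellar markers was 17.6 to 5110 CPM. Transcripts of 7 Hox genes, which mark the brainstem and spinal cord, reached 873, 3033 and 3499 counts in DNP replicate 1 and BAC replicates 1 and 3 and at most 5 in the others. Without these 3 libraries, a setting added after the data were seen, the log2 ratio of the summed globin level was 1.38 in DNP versus CON and 1.21 in BAC versus CON. The share of counts from mitochondrial genes was 4.34% to 5.36% in CON and 5.94% to 7.23% in DNP and BAC, and its part in the globin differences was not tested.

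**Figure D1:**
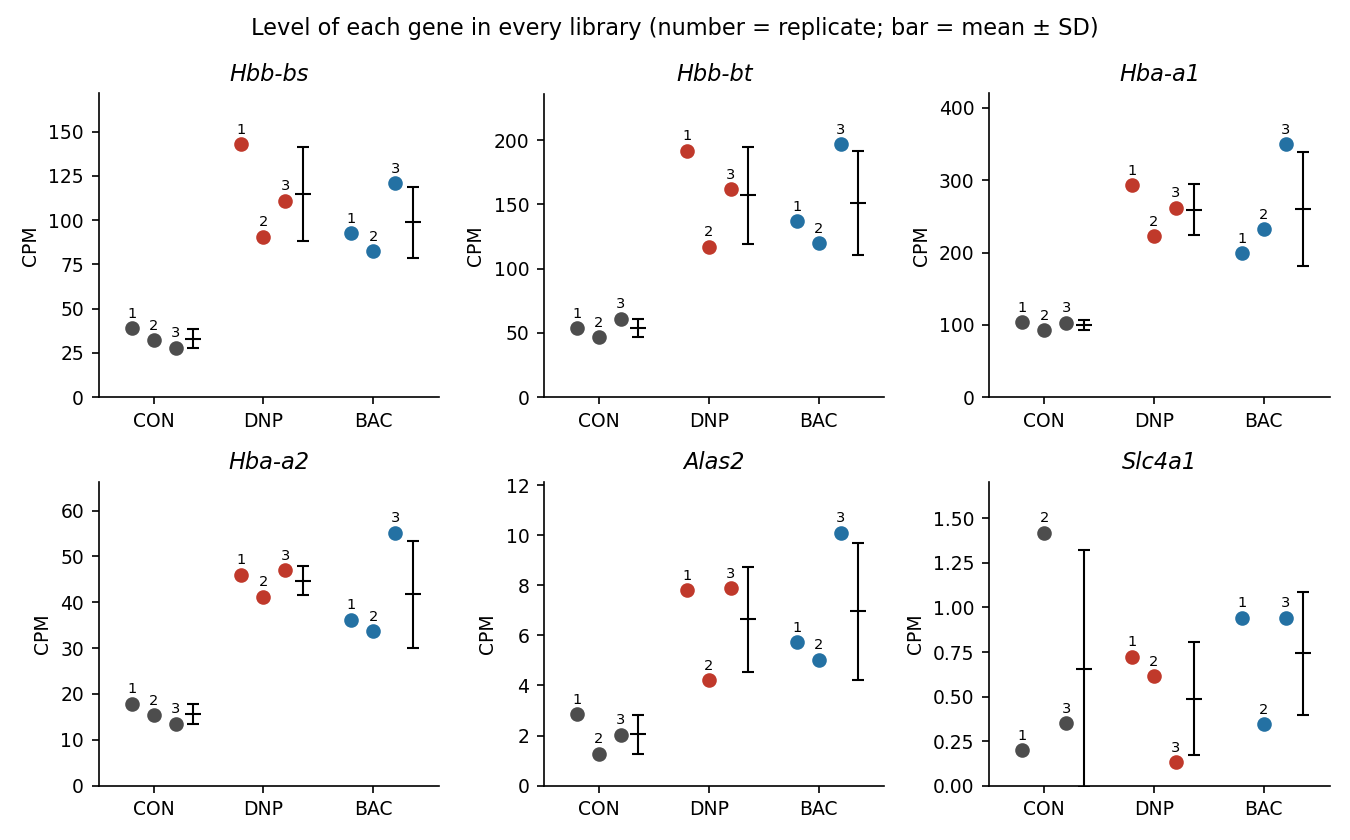
Each point is the level of a gene in a library in CPM, numbered by replicate, and the bar beside each group is the mean ± SD of 3 libraries. Hbb-bs, Hbb-bt, Hba-a1, Hba-a2 and Alas2 were higher in all 6 diabetic libraries than in all 3 CON libraries, and Slc4a1 (0.131 to 1.42 CPM) overlapped between groups.

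The beta-globin genes lie in the same cluster on chromosome 7 of GRCm38. Hbb-bs (ENSMUSG00000052305) spans chr7:103826534-103828096 and Hbb-bt (ENSMUSG00000073940) spans chr7:103812524-103813996, both on the minus strand. Hbb-bs had 589, 452 and 399 counts in CON, 1980, 1329 and 1700 in DNP and 1280, 1198 and 1920 in the BAC group. No DNP or BAC library was as low as a CON library, and DNP replicate 1 was the highest of the 9. In CPM the means were 33.0 ± 5.57 in CON, 115 ± 26.5 in DNP and 98.7 ± 19.7 in the BAC group (SD, n = 3 each). The log2 fold change of Hbb-bs was 1.80 (standard error 0.23) in DNP versus CON and 1.58 (standard error 0.23) in BAC versus CON.

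Hbb-bt had 811, 654 and 870 counts in CON, 2659, 1724 and 2476 in DNP and 1884, 1747 and 3140 in the BAC group. Its level was 53.8 ± 7.23 CPM in CON, 157 ± 37.6 in DNP and 151 ± 40.6 in the BAC group (SD, n = 3 each). Hbb-bt differed by a log2 fold change of 1.55 (standard error 0.25) in DNP versus CON and 1.49 (standard error 0.25) in BAC versus CON. The diabetic groups overlapped each other, with BAC replicate 3 the highest library and DNP replicate 2 the lowest of the 6. In BAC versus DNP the log2 fold change was -0.22 (standard error 0.22) for Hbb-bs and -0.05 (standard error 0.24) for Hbb-bt.

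The alpha-globin genes lie close together on chromosome 11. Hba-a1 (ENSMUSG00000069919) spans chr11:32283511-32284465 and Hba-a2 (ENSMUSG00000069917) spans chr11:32296489-32297298, both on the plus strand. Hba-a1 had the highest counts of the 6 genes in every library, with 1572, 1300 and 1473 in CON, 4051, 3270 and 4000 in DNP and 2740, 3369 and 5569 in the BAC group. Its CON libraries were close together at 100 ± 6.47 CPM (SD, n = 3), a coefficient of variation of 6.47%. Its level was 259 ± 35.1 CPM in DNP and 260 ± 79.5 CPM in BAC (SD, n = 3 each), where BAC replicate 3 at 350 CPM stood above the other BAC libraries at 199 and 232 CPM. The log2 fold change of Hba-a1 was 1.38 (standard error 0.22) both in DNP versus CON and in BAC versus CON, and 0.01 (standard error 0.22) in BAC versus DNP.

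Hba-a2 had 271, 217 and 193 counts in CON, 637, 604 and 717 in DNP and 500, 489 and 878 in the BAC group. Its level was 15.6 ± 2.21 CPM in CON, 44.7 ± 3.14 in DNP and 41.7 ± 11.7 in the BAC group (SD, n = 3 each). For Hba-a2 the log2 fold change was 1.52 (standard error 0.21) in DNP versus CON, 1.42 (standard error 0.21) in BAC versus CON and -0.10 (standard error 0.21) in BAC versus DNP. As for the other globins, the DNP and BAC libraries overlapped and no diabetic library was as low as a CON library.

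Alas2 (ENSMUSG00000025270) spans chrX:150547375-150570638 on the plus strand. Its counts were far lower, at 43, 18 and 29 in CON, 108, 62 and 120 in DNP and 79, 73 and 161 in the BAC group. The level of Alas2 was 2.05 ± 0.784 CPM in CON, 6.63 ± 2.09 in DNP and 6.96 ± 2.76 in the BAC group (SD, n = 3 each). The 6 diabetic libraries were above the 3 CON libraries, as for the globins. In the fit, the log2 fold change of Alas2 was 1.69 (standard error 0.42) in DNP versus CON, 1.76 (standard error 0.42) in BAC versus CON and 0.07 (standard error 0.40) in BAC versus DNP. The libraries are not strand-specific, and 311 exonic bases of Alas2 are shared with Apex2, a gene on the opposite strand with 65 to 107 counts, so that a part of the counts could belong to either gene.

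Slc4a1 (ENSMUSG00000006574) spans chr11:102348824-102366203 on the minus strand. It was barely detected, with 3, 20 and 5 counts in CON, 10, 9 and 2 in DNP and 13, 5 and 15 in the BAC group. Its groups overlapped in every comparison, and CON replicate 2 was the highest library. The log2 fold change of Slc4a1 was -0.42 (standard error 0.84) in DNP versus CON, 0.18 (standard error 0.81) in BAC versus CON and 0.61 (standard error 0.83) in BAC versus DNP. Without CON replicate 2 it was 0.80 in DNP versus CON and 1.42 in BAC versus CON. With standard errors of 0.81 to 0.84, a difference of the size seen for the globins was not detectable for Slc4a1 at this depth.

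**Figure D2:**
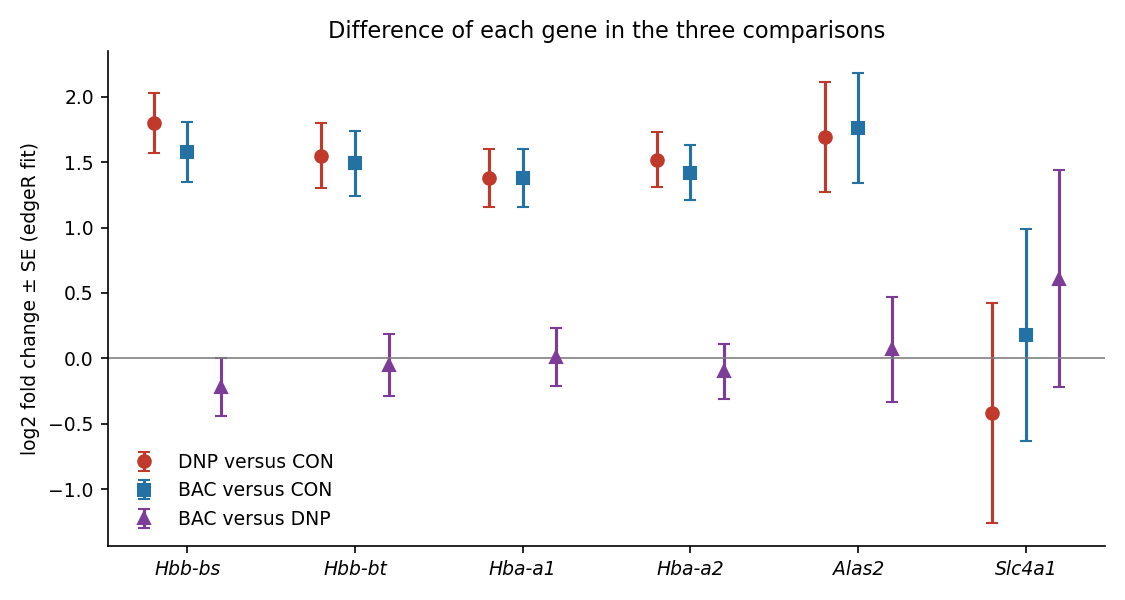
The log2 fold change of each gene is plotted with a standard error derived from the F statistic of the edgeR fit over 9 libraries. Circles give DNP versus CON, squares BAC versus CON and triangles BAC versus DNP. The globins and Alas2 lie between 1.38 and 1.80 against CON and between -0.22 and 0.07 in BAC versus DNP, and the bars of Slc4a1 cross 0.

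Of the 6 genes, 5 had no overlap between the libraries in DNP versus CON and the same 5 had none in BAC versus CON, all with higher levels in the diabetic group. Among the 18501 genes tested, 9.58% were higher without overlap in DNP versus CON and 7.19% in BAC versus CON. In BAC versus DNP none of the 6 genes was without overlap, against 3.39% of genes higher in BAC and 3.41% lower. The genes were picked with these levels known, so nothing is read from the counts. The smallest of the 4 globin log2 fold changes was 1.38 in DNP versus CON, and 1.91% of the tested genes were at or above it. In BAC versus CON the smallest was also 1.38, and 2.13% of the genes were at or above it. The median log2 fold change of all genes was 0.01 and -0.02.

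The 4 globin genes form pairs of nearly equal sequence, which bears on how far the copies can be told apart. In the annotated transcripts (GENCODE, GRCm38), the 444 coding bases of Hbb-bs and Hbb-bt differ at 1 position, and so do the 429 coding bases of Hba-a1 and Hba-a2. With positions counted from 1 at the first base of the coding sequence and the base of the first-named gene given first, the differences are C417T for Hbb-bs and Hbb-bt and C381T for Hba-a1 and Hba-a2. The 60 coding bases around each difference are shown 5′ to 3′ with the differing base in capitals, for coding positions 385 to 444 of the beta genes and 351 to 410 of the alpha genes.
Hbb-bs: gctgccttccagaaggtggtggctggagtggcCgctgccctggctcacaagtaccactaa
Hbb-bt: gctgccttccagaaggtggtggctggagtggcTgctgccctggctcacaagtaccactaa
Hba-a1: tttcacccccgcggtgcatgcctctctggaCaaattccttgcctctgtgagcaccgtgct
Hba-a2: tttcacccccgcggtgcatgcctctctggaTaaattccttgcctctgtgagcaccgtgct

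Stretches of 150 bases, a length chosen here, were often identical within a pair. Of such windows, 58.7% of those in the Hbb-bs transcript also occur in Hbb-bt, and 50.7% the other way. For the alpha genes, 48.4% of the windows of Hba-a1 also occur in Hba-a2, and 65.7% the other way. No window was shared between Hbb-bs and Hba-a1. The reads were paired-end, so these percentages are not the share of read pairs that match both copies. How reads that match several genes were counted is not given in the sources used here, so the split within a pair is uncertain. The sum of a pair does not depend on the split as long as reads that match both copies were counted.

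As pair sums, the alpha genes were at 116 ± 7.13 CPM in CON, 304 ± 37.7 in DNP and 302 ± 90.8 in the BAC group (SD, n = 3 each). The beta genes were at 86.8 ± 7.26 CPM in CON, 272 ± 63.7 in DNP and 250 ± 60.3 in the BAC group (SD, n = 3 each). The log2 ratio in DNP versus CON was 1.39 for the alpha pair and 1.63 for the beta pair. In BAC versus CON it was 1.35 for the alpha pair and 1.50 for the beta pair. For each pair the diabetic libraries were above the CON libraries, and DNP and BAC overlapped.

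The make-up of the globin counts varied much less than their sum. The alpha genes gave 57.1% ± 0.6 of the globin counts in CON, 53.1% ± 2.83 in DNP and 54.4% ± 3.35 in the BAC group (SD, n = 3 each). The alpha share was 56.8% to 57.8% in the CON libraries and 50.3% to 56.7% in the 6 diabetic libraries, of which DNP replicate 1 and BAC replicate 1, both with Hox counts, were the lowest. Hbb-bt gave 56.5% to 68.6% of the beta counts, with CON replicate 3 at 68.6% and the other 8 libraries at 62.1% or less. Hba-a1 gave 84.4% to 88.4% of the alpha counts. Alas2 had 10.0 ± 3.2 counts per 1000 globin counts in CON, 11.3 ± 2.28 in DNP and 12.4 ± 1.63 in the BAC group (SD, n = 3 each), so that its level differed between groups by about as much as that of the globins.

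**Figure D3:**
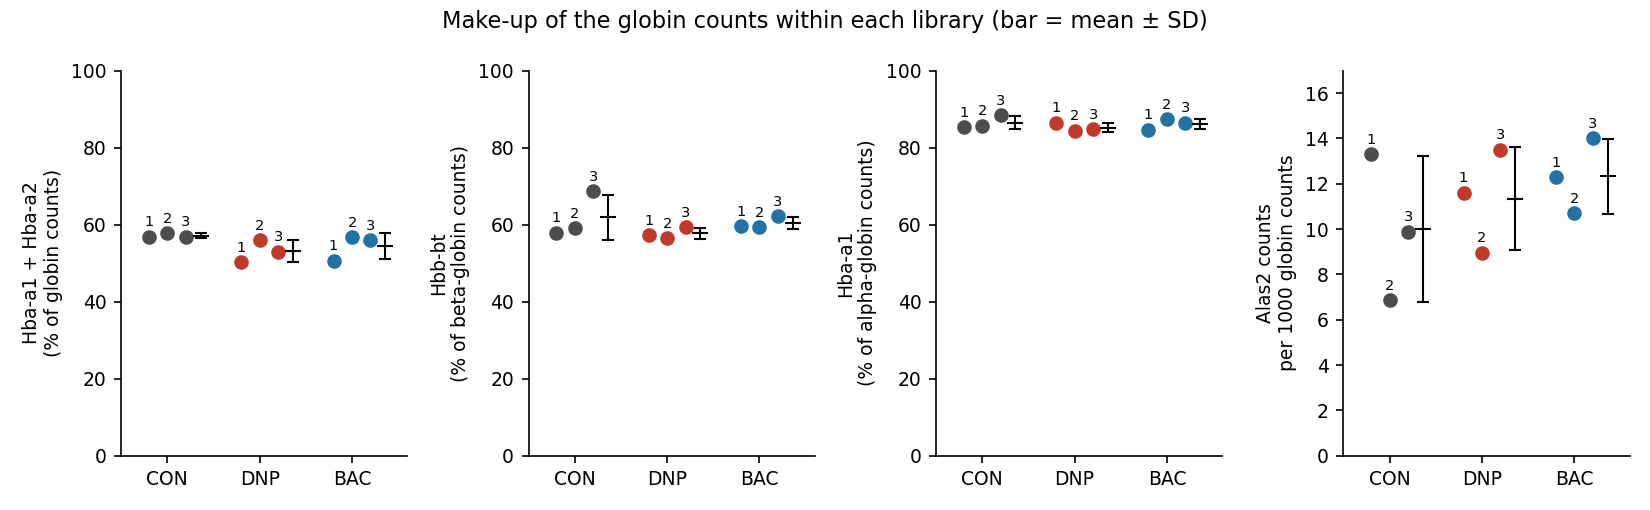
Within each library, the points show the alpha share of the globin counts, the Hbb-bt share of the beta counts, the Hba-a1 share of the alpha counts (all in percent) and the Alas2 counts per 1000 globin counts, with the mean ± SD of 3 libraries beside each group. The shares stay within 50.3% to 57.8%, 56.5% to 68.6% and 84.4% to 88.4%, and Alas2 lies between 6.86 and 14.0 with overlapping groups.

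Among the 6 diabetic libraries the genes varied together. The Pearson correlation of log2 CPM over these 6 libraries was 0.94 between Hbb-bs and Hbb-bt, 0.87 between Hba-a1 and Hba-a2, 0.77 to 0.86 between a beta and an alpha gene, and 0.80 to 0.96 between Alas2 and a globin. For Slc4a1 the correlations with the other genes were 0.02 to 0.15. The points share the library size and the scaling, and reads can be shared within a pair, so these values are a description of 6 libraries. BAC replicate 3 and DNP replicate 1 had the highest summed globin levels.

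Per length, the order of the genes depended on the length used. For 92.7% of 34988 genes compared, the length in the deposited FPKM (counts scaled to gene length and library total) equalled, within 1 base, the sum of all distinct annotated exons, in which bases of overlapping exons are counted more than once. For Hbb-bs this gives 1379 bases, whereas its longest coding transcript has 628. The length is 1193 against 699 for Hba-a1 and 1048 against 554 for Hba-a2, and for Hbb-bt, with a single annotated transcript, both are 703. In FPKM, Hbb-bt was 2.54 to 4.28 times as high as Hbb-bs, and per kilobase of the coding transcript 1.16 to 1.95 times. The alpha genes together were 0.767 to 1.03 times the beta genes in FPKM and 1.00 to 1.36 times per coding transcript.

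Per kilobase of the coding transcript, Hba-a1 was the highest in CON at 143 ± 9.26 CPM per kb, followed by Hbb-bt at 76.5 ± 10.3 and Hbb-bs at 52.6 ± 8.87 (SD, n = 3 each). In these CON libraries the lowest Hba-a1 value of 132 was above the highest Hbb-bt value of 86.8, and the lowest Hbb-bt value of 66.2 was above the highest Hbb-bs value of 62.1. Hba-a2 was at 28.2 ± 4, Alas2 at 1.01 ± 0.385 and Slc4a1 at 0.145 ± 0.147 CPM per kb, without overlap between neighbours in this order. In DNP the ranges of Hbb-bt (167 to 273) and Hbb-bs (144 to 228) overlapped on this scale, as they did in BAC, while Hba-a1 stayed above both. On the FPKM scale, Hba-a1 ranked 338 to 346 among all listed genes in CON, 103 to 142 in DNP and 74 to 135 in the BAC group.

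**Figure D4:**
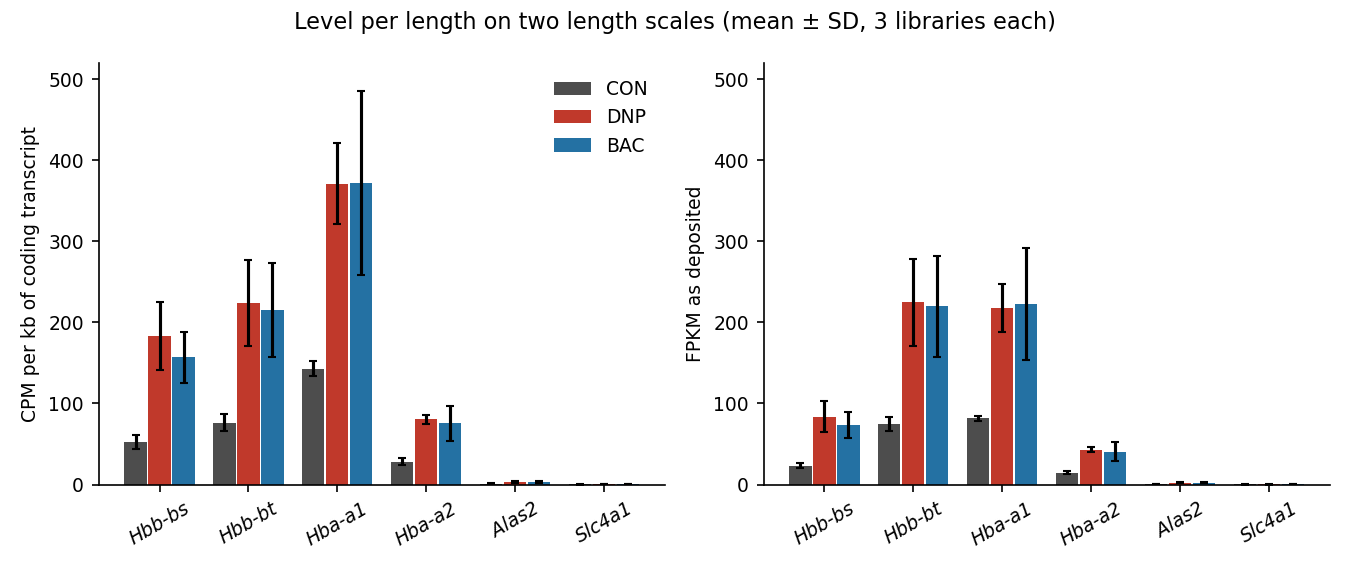
Bars give the mean level per length in CON, DNP and BAC with the SD over 3 libraries, on the left as CPM per kilobase of the longest coding transcript and on the right as the deposited FPKM, both from 0. Hba-a1 is the highest gene on the left (143 in CON), and on the right Hba-a1 and Hbb-bt are level (81.7 and 74.5 FPKM in CON).

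Because the globins and Alas2 differed together, the 250 bases upstream of their annotated starts are shown, with short motifs of erythroid promoters in capitals. The sequences are from RefSeq (GRCm38.p6), 5′ to 3′ on the strand of the gene, and 5 of the 6 genes had an entry. Within each window GENCODE places the outer end of the gene further upstream than RefSeq does. The windows are chr7:103827929-103828178 (minus strand) for Hbb-bs, chr7:103813924-103814173 (minus strand) for Hbb-bt, chr11:32283422-32283671 (plus strand) for Hba-a1 and chrX:150547167-150547416 (plus strand) for Alas2. Capitals mark the TATA box (TATAA), the CCAAT box, the CACCC box and a GATA site (AGATAA, also with T as the first base or G as the last), each on either strand, and touching or overlapping matches run together.
Hbb-bs: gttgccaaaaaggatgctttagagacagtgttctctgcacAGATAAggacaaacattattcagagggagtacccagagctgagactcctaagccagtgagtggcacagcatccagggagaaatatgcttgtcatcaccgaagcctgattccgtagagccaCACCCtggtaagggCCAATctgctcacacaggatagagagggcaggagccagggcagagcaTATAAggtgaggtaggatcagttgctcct
Hbb-bt: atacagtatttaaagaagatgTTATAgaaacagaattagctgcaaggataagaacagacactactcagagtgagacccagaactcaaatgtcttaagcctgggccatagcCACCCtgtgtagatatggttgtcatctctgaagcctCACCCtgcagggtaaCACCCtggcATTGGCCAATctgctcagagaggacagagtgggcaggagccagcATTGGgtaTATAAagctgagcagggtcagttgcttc
Hba-a1: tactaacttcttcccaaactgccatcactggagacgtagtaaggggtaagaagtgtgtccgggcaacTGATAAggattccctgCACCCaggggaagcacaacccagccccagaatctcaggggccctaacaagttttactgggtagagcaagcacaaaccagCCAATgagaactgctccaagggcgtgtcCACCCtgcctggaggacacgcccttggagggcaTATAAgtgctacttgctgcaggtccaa
Alas2: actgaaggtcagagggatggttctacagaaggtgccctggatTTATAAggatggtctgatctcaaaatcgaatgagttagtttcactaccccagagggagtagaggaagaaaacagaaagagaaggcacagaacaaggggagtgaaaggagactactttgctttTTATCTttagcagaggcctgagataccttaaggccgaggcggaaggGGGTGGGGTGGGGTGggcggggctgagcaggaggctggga

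Hbb-bs, Hba-a1 and Hba-a2 hold all 4 kinds of motif, as do 1.08% of the 32851 promoters of this length. TATAA begins 29 bases upstream of the start in Hbb-bs, 28 in Hbb-bt, 27 in Hba-a1 and 30 in Hba-a2, and the nearest match in Alas2 is 207 bases upstream. A match of CCAAT is 76 bases upstream in Hbb-bs and 88 in Hba-a1, and Hbb-bt holds 3 matches, whereas Alas2 has none in this window. CACCC occurs 3 times in Hbb-bt, 3 times in Alas2 and once in Hbb-bs, and the nearest match in Alas2 is 30 bases upstream. A GATA form was found in Hbb-bs, Hba-a1, Hba-a2 and Alas2 and not in this window of Hbb-bt. In all promoters, TATAA occurs in 22.8%, CCAAT in 33.8%, CACCC in 52.0% and a GATA form in 26.5%. Shifted by 3 bases, the windows of Hba-a1 and Hba-a2 are 100% equal over 247 bases, and those of Hbb-bs and Hbb-bt at their best shift are 51.0% equal over 249. A match describes the letters and does not show that a factor binds.

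To place the 6 genes among other globins and other red cell genes, 18 further lists with 187 genes were examined, of which 136 genes were tested. With Benjamini-Hochberg adjustment over all genes, edgeR's quasi-likelihood test called 0 of these 136 in any of the comparisons, as it called 0.0% of all genes. At an unadjusted p under 0.05, 14 of the 136 were higher and 9 lower in DNP than in CON, 10 higher and 6 lower in BAC than in DNP, and 16 higher and 10 lower in the BAC group than in CON (edgeR). Over all genes, 11.2%, 2.37% and 7.76% passed this threshold in the same comparisons. DESeq2 called 10, 1 and 2 of the listed genes, and 1.85%, 0.0378% and 0.541% of all genes.

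Among the other globins, the embryonic genes Hbb-y, Hbb-bh1, Hbb-bh2 and Hba-x, and Hbb-bh0, had 0 counts in every library, which allows up to 3 counts each and covers counting error only. Hbq1a and Hbq1b, theta-like globin genes of the alpha cluster, had 0 to 12 counts. Ngb, which encodes neuroglobin of neurons, had 18 to 89 counts in CON, 41 to 156 in DNP and 65 to 281 in the BAC group, with overlapping groups and a log2 fold change of 0.90 (standard error 0.72) in DNP versus CON. Cygb, which encodes cytoglobin of fibroblast-like cells and some neurons, was at 67.9 ± 8.41 CPM in CON, 93.1 ± 41.6 in DNP and 114 ± 46.8 in the BAC group (SD, n = 3 each), also with overlap. Both were highest in BAC replicate 3 and next in DNP replicate 1, 2 of the 3 libraries with Hox counts. Hbb-b1 and Hbb-b2, the adult beta genes of other mouse haplotypes, were not analysed here.

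Most other markers of the red cell lineage were near 0. Of the 18 erythroid markers examined, 14 had too few counts to be tested, with at most 23 counts in a library for each. The erythroid transcription factor genes Gata1 and Klf1 had 0 to 1 and 1 to 13 counts. Epb42, for a membrane skeleton protein, had at most 5 counts, and Hemgn, for a nuclear protein of erythroblasts, at most 3. Gfi1b, for a transcriptional repressor of erythroid cells, and Cldn13, an erythroid claudin gene, had 0 counts in all 9 libraries. Summed over the 14 genes, the counts were 6, 23 and 12 in CON, 36, 18 and 23 in DNP and 21, 7 and 27 in the BAC group, so that the groups overlapped. The other 4 markers, Epor, Ermap, Icam4 and Tal1, were tested, and their median log2 fold change was 0.30 in DNP versus CON and 0.61 in BAC versus CON. Of the 4, 1 was higher without overlap in DNP versus CON, against 9.58% of all genes. It was Icam4, for a red cell adhesion molecule, with 0 to 5 counts in CON, 9 to 19 in DNP and 1 to 13 in the BAC group, and it did not pass the test (edgeR adjusted p = 0.446, DESeq2 0.356).

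Genes that red cells share with brain cells did not follow the globins as a group. The median log2 fold change of the 13 genes, all tested, was 0.14 in DNP versus CON and -0.08 in BAC versus CON, and edgeR called 0 of them (DESeq2 also 0). In DNP versus CON, 3 were higher and 2 lower without overlap, against 9.58% and 8.66% of all genes. In BAC versus CON, 2 were higher and 0 lower without overlap, against 7.19% and 6.24% of all genes. Bpgm, whose enzyme makes the regulator of haemoglobin's oxygen affinity, differed by 0.46 on the log2 scale (standard error 0.15) in DNP versus CON and 0.35 in BAC versus CON, with adjusted p = 0.357 in DNP versus CON (edgeR). Slc2a1, the glucose transporter gene of the blood-brain barrier and red cells, had log2 fold changes of 0.58 (standard error 0.21) in DNP versus CON and 0.09 in BAC versus CON. Sptb and Add1, for proteins of the spectrin skeleton, had log2 fold changes of -0.98 and -0.39 in DNP versus CON. Sptb had its highest count in CON replicate 2 (10036), which also had the highest count of the cerebellar marker Cbln3 (20658). Add1 had its highest count in CON replicate 1 (3104). The part of the brain regions held by the libraries in these values was not tested.

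Heme synthesis genes other than Alas2 showed much smaller differences. Their summed level was 374 to 425 CPM in CON, 402 to 455 in DNP and 402 to 442 in the BAC group, and the median log2 fold change of the 13 genes was 0.14 in DNP versus CON and 0.07 in BAC versus CON. Alas1, for the form of the enzyme outside red cells, was at 46.8 ± 2.64 CPM in CON, 47.7 ± 2.33 in DNP and 44.8 ± 3.55 in the BAC group (SD, n = 3 each). Fech, for ferrochelatase, which inserts the iron, was at 58.5 ± 2.53, 58.2 ± 4.92 and 61.3 ± 3.99 CPM (SD, n = 3 each). Of the 13, 1 was higher without overlap in DNP versus CON and 1 in BAC versus CON, against 9.58% and 7.19% of all genes, so that the share was near that of all genes. In both comparisons it was Urod, for the fifth enzyme of the pathway, at log2 fold changes of 0.38 (standard error 0.16) and 0.32. None of the 13 passed an adjusted p of 0.05 in edgeR or DESeq2 in any comparison.

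Among the 19 genes of heme breakdown and iron handling, 16 were tested, with a median log2 fold change of 0.08 in DNP versus CON and 0.23 in BAC versus CON. Fth1, which encodes the heavy chain of ferritin, the iron store, was at 1290 ± 233 CPM in CON, 2760 ± 855 in DNP and 2340 ± 683 in the BAC group (SD, n = 3 each). The Fth1 counts were 14863 to 23020 in CON, 27373 to 49398 in DNP and 23963 to 48004 in the BAC group, and every diabetic library was above every CON library. Its log2 fold change was 1.10 (standard error 0.30) in DNP versus CON and 0.86 in BAC versus CON, with adjusted p = 0.325 in DNP versus CON by edgeR and 0.0487 by DESeq2. Hmox1, for the heme oxygenase induced by free heme, was at 3.74 ± 1.48, 5.28 ± 1.69 and 4.14 ± 0.415 CPM in CON, DNP and BAC (SD, n = 3 each), with overlap. Without overlap, 1 of the 16 was higher and 2 were lower in DNP versus CON, against 9.58% and 8.66% of all genes. In BAC versus CON, 2 were higher and 1 lower without overlap, against 7.19% and 6.24% of all genes. Slc40a1, for the iron exporter ferroportin, had log2 fold changes of -0.40 and -0.77 in DNP and BAC versus CON, without overlap in both. Aco1, for an iron-sensing RNA-binding protein, had a log2 fold change of -0.32 in DNP versus CON, without overlap. Tfrc, for the transferrin receptor, had log2 fold changes of 0.20 and 0.22 in DNP and BAC versus CON. Of the 8 genes of the oxygen response, 7 were tested, and their median log2 fold change was -0.02 in DNP versus CON and -0.07 in BAC versus CON. Their summed level was 179 to 202 CPM in CON, 210 to 214 in DNP and 180 to 203 in the BAC group, so that DNP lay above both other groups. Of the 7, 3 had a positive log2 fold change in DNP versus CON and 4 a negative one. Egln3, for an oxygen-sensing hydroxylase, and Adm, for adrenomedullin, were each at 0.78. Bnip3, for a mitochondrial protein induced by low oxygen, was at 0.35. The negative values were -1.29 (standard error 0.91) for Car9, -0.19 for Ankrd37, -0.06 for Pdk1 and -0.02 for Vegfa. No single gene of the 7 was without overlap in DNP versus CON, and edgeR and DESeq2 called 0 of them. Epo, for the hormone of red cell production, had 0 to 2 counts.

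**Figure D5:**
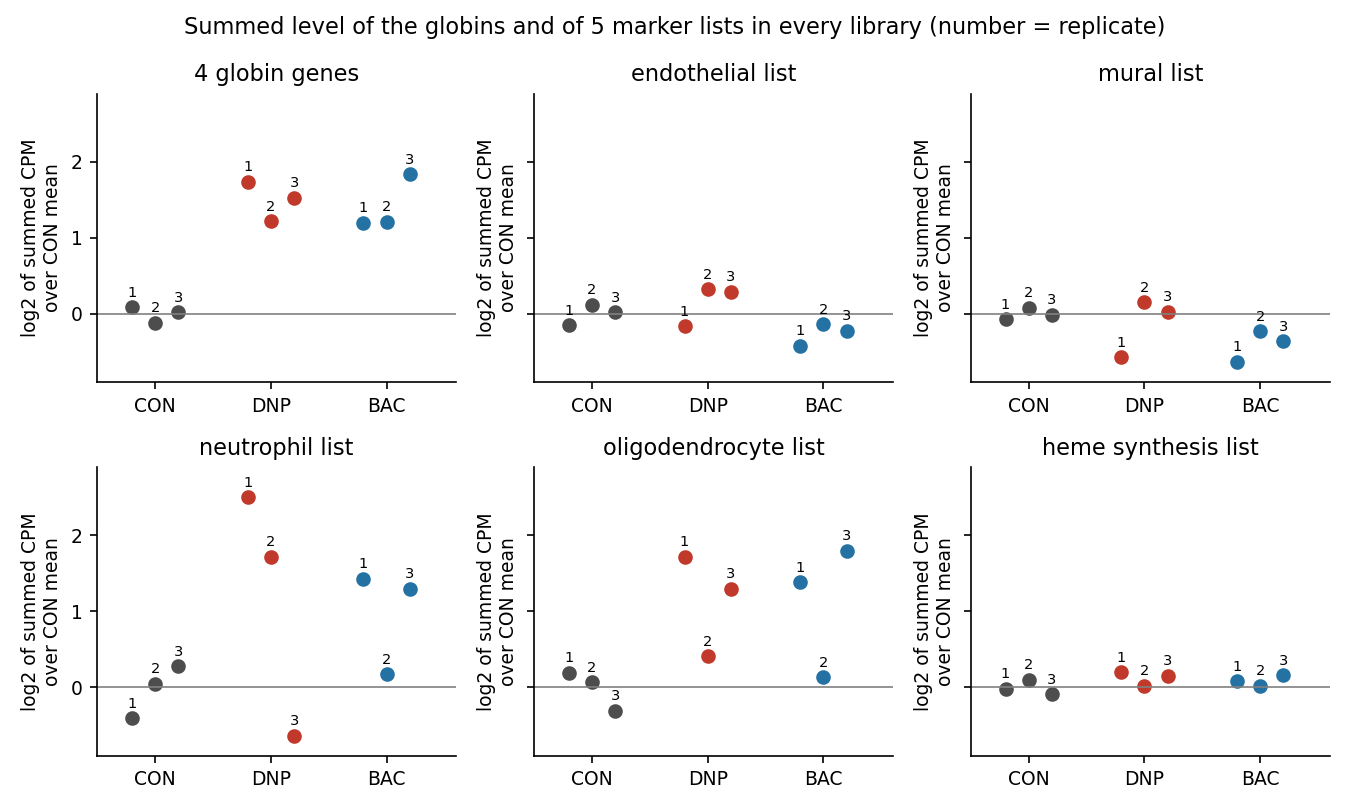
Points give, for each library, the log2 of the summed CPM of a list over the mean of the CON libraries, for the 4 globins and the endothelial, mural, neutrophil, oligodendrocyte and heme synthesis lists. The globins of the diabetic libraries (464 to 723 CPM) all lie above CON (187 to 215 CPM). The endothelial (279 to 467 CPM in DNP and BAC, 337 to 406 in CON) and neutrophil lists overlap CON in DNP and in BAC. The mural list overlaps CON (243 to 270 CPM) in DNP and lies below it in BAC (166 to 219 CPM). The oligodendrocyte list lies above CON (1600 to 2280 CPM) in DNP (2650 to 6560 CPM) and overlaps it in BAC (2180 to 6960 CPM).

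Markers of other cells of the blood and the vessels were measured beside the globins. The 13 endothelial genes had a summed level of 337 to 406 CPM in CON, 335 to 467 in DNP and 279 to 340 in the BAC group, and a median log2 fold change of 0.07 in DNP versus CON and -0.42 in BAC versus CON. Without overlap, 3 of the 13 were higher and 1 lower in DNP versus CON, against 9.58% and 8.66% of all genes. In BAC versus CON, 2 were higher and 6 lower, against 7.19% and 6.24%. All 13 had a negative log2 fold change in BAC versus DNP. The 3 higher in DNP were Ly6a, Ly6c1 and Vwf, genes of endothelial surface and adhesion proteins, at 1.27, 0.88 and 0.78. Each was called by DESeq2, as were 1.85% of all genes, and not by edgeR (adjusted p = 0.294 each). In BAC versus CON, Ly6c1 was at 0.36 with overlap. Kdr, for a receptor of VEGF, had log2 fold changes of -0.79 and -1.18 in DNP and BAC versus CON, without overlap. The tight junction gene Cldn5 was at 36.2 ± 5.45 CPM in CON, 38.0 ± 8.54 in DNP and 25.2 ± 9.14 in the BAC group (SD, n = 3 each). The 10 mural genes summed to 243 to 270 CPM in CON, 173 to 285 in DNP and 166 to 219 in the BAC group.

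Of the 12 neutrophil markers, 5 were tested, and the summed level was 3.31 to 5.33 CPM in CON, 2.82 to 24.9 in DNP and 4.96 to 11.8 in the BAC group. All 5 had a positive log2 fold change in both comparisons with CON, with a median of 2.62 in DNP versus CON and 1.46 in BAC versus CON. The neutrophil granule gene S100a9 had 0 to 8 counts in CON, 86, 52 and 7 in DNP and 32, 10 and 23 in the BAC group. Its log2 fold change was 3.47 in DNP versus CON, called by DESeq2 (adjusted p = 0.0492) and not by edgeR (0.355), and 2.28 in BAC versus CON, where it was the 1 gene of the 5 higher without overlap. Ly6g, a defining neutrophil marker, had 0 counts in CON and at most 3 elsewhere. The 10 platelet markers summed to 15.3 to 21 CPM in CON, 10.6 to 30.5 in DNP and 10.3 to 31.8 in the BAC group. Of the 4 that were tested, 2 were higher without overlap in DNP versus CON and 1 in BAC versus CON, against 9.58% and 7.19% of all genes, and edgeR and DESeq2 called 0. Gp1ba, for a platelet adhesion receptor, had 7 to 10 counts in CON, 11 to 16 in DNP and 12 to 17 in the BAC group, with every diabetic library above every CON library and log2 fold changes of 0.50 and 0.69. Itga2b, for a platelet integrin, had log2 fold changes of 0.47 in DNP versus CON, without overlap, and 0.17 in BAC versus CON. Pf4 and Ppbp, for platelet chemokines, had 5 to 10 and 0 to 4 counts. Of the 10 lymphocyte markers, 1 was tested, Ighm, for an immunoglobulin heavy chain, with log2 fold changes of 0.63 and 0.18 in DNP and BAC versus CON and overlap in both. Cd79b, for a part of the B cell receptor, had 0, 2 and 2 counts in CON, 6, 5 and 5 in DNP and 5, 6 and 4 in the BAC group, so that every diabetic library was above CON. Cd79a, for its partner, had 2 to 4 counts in CON, 5 to 8 in DNP and 4 to 6 in the BAC group, whereas the T cell gene Cd3e had 1 to 6, 0 to 8 and 0 to 5. The part of these cells in the globin differences was not tested.

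Markers of brain tissue were measured in the same way, and edgeR called 0 of the genes of these lists in any comparison. DESeq2 called 0 of the oligodendrocyte, neuronal, astrocyte, choroid plexus and cerebellar genes in any comparison. The 5 oligodendrocyte genes summed to 1600 to 2280 CPM in CON, 2650 to 6560 in DNP and 2180 to 6960 in the BAC group, with a median log2 fold change of 1.26 in DNP versus CON and 1.27 in BAC versus CON. The summed level did not overlap in DNP versus CON and overlapped in BAC versus CON. At an unadjusted p under 0.05 in edgeR, 5 of the 5 were higher in DNP and 4 in the BAC group than in CON. Of all genes, 11.2% and 7.76% passed this threshold in either direction in the same comparisons. Their highest values were in BAC replicate 3 and DNP replicate 1, which also had the highest globin levels. The 11 meningeal genes had 134 to 176 CPM in CON, 79.3 to 94.8 in DNP and 128 to 177 in the BAC group. DESeq2 called 3 of them lower in DNP versus CON and 1 higher in BAC versus DNP. It called 1.85% and 0.0378% of all genes in these comparisons. The 5 neuronal and 5 astrocyte genes had median log2 fold changes of 0.22 and -0.17 in DNP versus CON and of -0.05 and 0.34 in BAC versus CON. The 7 choroid plexus genes had -0.30 and -0.09, the 7 cerebellar genes -3.29 and -0.76, and the 8 brainstem and spinal cord genes 7.20 and 9.76, values fitted against libraries at or near 0 counts. Short genes had a higher median than all genes, and Hbb-bt, Hba-a1, Hba-a2 and Hbb-bs all have under 1500 bases on the authors' length scale. The 2318 tested genes under 1500 bases had a median log2 fold change of 0.17 in DNP versus CON and 0.10 in BAC versus CON, against 0.01 and -0.02 for all genes. The part of tissue make-up and of gene length in the globin differences was not tested.

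Among the genes whose levels followed the summed globin level most closely over the 9 libraries were Rpl7, Carhsp1, Mrps14, C4b, Rpl22l1, Rps6-ps4, Gm15512, Cox7a2 and Tpt1. Their Pearson correlations of log2 CPM with the log2 of the summed globins were 0.968 to 0.986, over 9 points that include the difference between CON and the diabetic groups. C4b, for a complement component, had log2 fold changes of 1.17 and 1.09 in DNP and BAC versus CON, and Carhsp1, for an RNA-binding protein, 1.13 and 1.06. Rpl7, Rpl22l1, Mrps14 and Cox7a2 encode ribosomal, ribosome-like, mitochondrial ribosomal and respiratory chain proteins, with log2 fold changes of 0.25 to 0.68 in DNP versus CON. Most opposed were Klf9, B130055M24Rik, Ncoa6, Spata2 and Hif1an, with correlations of -0.995 to -0.965. Klf9, a glucocorticoid-responsive transcription factor gene, was at 182 CPM in CON, 123 in DNP and 124 in the BAC group. Alas2 correlated with the summed globins at 0.961 and Slc4a1 at 0.041.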

How the data were processed

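Poly(A) RNA of the whole brain of 9 mice (3 CON, 3 DNP, 3 BAC) was sequenced in non-strand-specific libraries, with groups taken from the sample labels. Per the submitters' processing notes and the methods, reads were checked with FastQC 0.11.9, filtered with fastp, aligned to GRCm38 with HISAT2 2.1.0 and quantified with StringTie 1.3.3b, and Bowtie2 2.3.4.1 was also used. The authors deposited raw counts per gene, which are not normalized. They also deposited FPKM values, each equal to the count divided by a gene length and the library total. How reads matching several genes were counted is not given in the sources used here.

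Counts were analysed in R 4.3.3 with edgeR 4.0.16 (filterByExpr with a minimum count of 10, TMM, quasi-likelihood test, all 9 libraries in 1 model, Benjamini-Hochberg adjustment, threshold 0.05). DESeq2 1.42.0 and limma 3.58.1 served as alternatives. Totals of 13107382 to 16008129 counts per library set the precision. The p-values rest on the spread between libraries within groups, estimated over all 9 libraries together with information shared across genes. This spread mixes differences between mice with differences in the brain regions that the libraries held. A count of 0 allows up to 3 counts.

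The 6 genes and the 18 other lists were chosen with earlier results of these data known. Named are the 6 genes, defining genes of the lists and those without overlap between groups, and the 10 genes most and 5 least correlated with the summed CPM of the 4 globins (log2 CPM, prior count 2). B3galt1 was named after its values were seen. Promoters came from RefSeq (GRCm38.p6), and transcripts and coordinates from GENCODE on GRCm38. Groups of 3 are too small for an outlier test. Alternatives were other normalizations, no filter, DESeq2, limma on log2(FPKM + 1) or log2(FPKM + 0.1), a library size without the 6 genes and mitochondrial genes, leaving out each library, and a replicate block. The authors' behavioural, qPCR and human blood data were not analysed here. A few genes that the rules for named genes select are not reported here.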

Additional observations from a re-analysis of the deposited data

How the results depend on the processing

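The summed globin level kept its direction against CON in all 15 alternatives run for it. Not all 15 could change each comparison. The scaling stayed fixed when a library was left out, so leaving out a library of the group not compared changed nothing. DESeq2 and an alternative with its type of size factors used the same scaling and gave the same values. The log2 ratio of the summed level ranged from 1.38 to 1.63 in DNP versus CON and from 1.21 to 1.53 in BAC versus CON. In BAC versus DNP it ranged from -0.29 to 0.04, with a change of sign without DNP replicate 1, BAC replicate 1 or BAC replicate 2. Of 306 log2 fold changes of single genes under the alternatives, 299 moved by less than the SD between replicates. Of the other 7, the largest shift was for Alas2 with limma on log2(FPKM + 1), with 0.91 in DNP versus CON and 0.97 in BAC versus CON, where the pseudocount is large beside its level. Hbb-bs, Hbb-bt, Hba-a1, Hba-a2 and Alas2 kept their sign against CON in all 17 alternatives. Slc4a1 changed sign in 2 of 17 in DNP versus CON and in 5 of 17 in BAC versus CON, with values from -0.86 to 0.80 and from -0.92 to 1.42. In BAC versus DNP the sign changed in at least 1 alternative for each gene except Hbb-bs.

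Across all genes edgeR called 0 in each comparison, and DESeq2 called 342 genes between DNP and CON (148 higher, 194 lower), 7 between BAC and DNP (4 higher, 3 lower) and 100 between BAC and CON (64 higher, 36 lower). Among the listed genes DESeq2 called 10, 1 and 2. Leaving out each library in turn gave 0 to 1 calls in DNP versus CON and in BAC versus CON, and 0 in BAC versus DNP, the call being B3galt1 without CON replicate 2. The cause was not tested. With the replicate block the counts were 0 in every comparison and no sign against CON changed for the globins and Alas2. Deviations from the group means of same-numbered libraries correlated from -0.579 to 0.56. As the libraries of a group also differed in brain regions, these mixed values cannot show whether replicate numbers pair the libraries. With 3 libraries per group and the counts of Slc4a1 and most erythroid markers under 25, only large differences could be seen.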
